A study of Mus musculus with 56 samples.

Results

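The Lgr5-high cells described here were 15 of 50 single colon tumor cells, chosen by their Lgr5 level, at 5 TPM (a transcript level that is corrected for length and scaled to the same total in each library) or more, and they were set against 12 Lgr5-low cells of the same tumors with Lgr5 below 1 TPM. The other 23 cells, with Lgr5 from 1 to under 5 TPM, lay outside the comparison. Since Lgr5 itself defined the groups, its values are a description. All cells came from 3 tumors of 1 male ApcMin/+ mouse (heterozygous for a truncating Apc allele), which received 2% dextran sulfate sodium (DSS) for 5 days from 10 weeks of age and was sampled at 12 weeks. The tumors were mixed after digestion, and live cells negative for Cd31 and Cd45 and positive for Epcam and Cd24 were sorted 1 per well. Each cell's cDNA was then screened for Lgr5 by a PCR of 32 cycles, and only positive cDNAs were sequenced, so the Lgr5-low cells had also been scored as Lgr5-positive by PCR. With 1 mouse, and cells of pooled tumors in place of replicates, no difference was tested. Differences below therefore describe these cells, and SDs are the spread between cells.

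Lgr5 encodes a receptor for R-spondins, secreted proteins that strengthen Wnt signaling by removing the ubiquitin ligases Rnf43 and Znrf3 from the cell surface. In the normal intestine, Lgr5 marks the cycling stem cells at the crypt base, and it is itself a Wnt target gene. In intestinal tumors with Apc mutations, where Wnt signaling is active without ligand, Lgr5 marks cells that can renew the tumor and give rise to its other cells.

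Lgr5 formed a continuous range over the cells, with no gap at either threshold. The 15 Lgr5-high cells had 5.27 TPM (lowest), 8.88 TPM (median) and 16.15 TPM (highest), and 7 of them reached 10 TPM. The 12 Lgr5-low cells had 0 TPM (lowest), 0.46 TPM (median) and 0.99 TPM (highest). One Lgr5-low cell was listed at 0 and 6 were at 0.5 TPM or more. The cells nearest the thresholds were at 5.27 TPM inside and 4.88 TPM outside the Lgr5-high group, and at 0.99 TPM inside and 1.02 TPM outside the Lgr5-low group. Where 2 libraries were near-identical (6 pairs, Pearson's r from 0.957 to 0.992, against 0.782 for the next pair), they were averaged as 1 cell. Both libraries of each such pair lay on the same side of the thresholds. The pair in the Lgr5-high group had 9.87 and 12.05 TPM, and the pair closest below that group had 4.99 and 4.77 TPM. The Lgr5 gene (ENSMUSG00000020140, GRCm38 chr10:115450311-115587780, minus strand) overlaps the gene A930009A15Rik on the other strand, and no source used here states whether counting took account of strand.

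**Figure D1:**
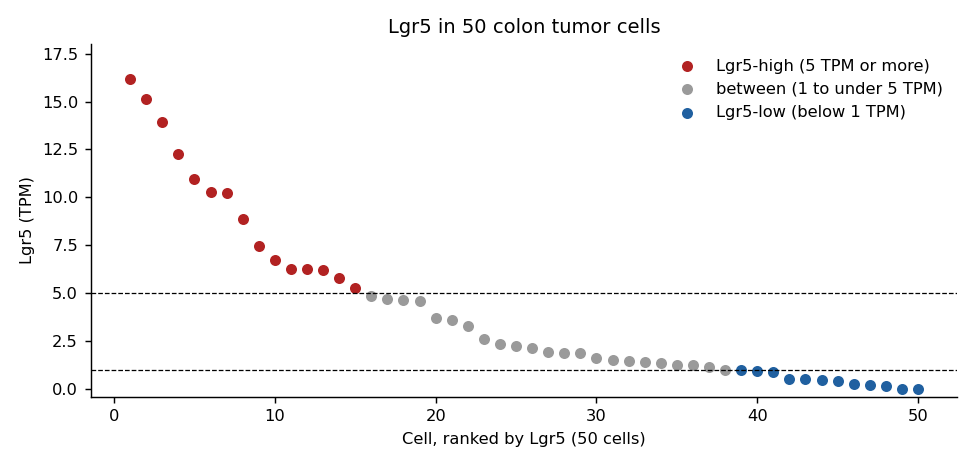
Lgr5 in TPM (vertical axis) in each of the 50 cells, ranked from the highest to the lowest (horizontal axis), with dashed lines at 5 and 1 TPM. The 15 Lgr5-high cells run from 16.15 to 5.27 TPM and the 12 Lgr5-low cells from 0.99 to 0 TPM, and the 23 cells between fill the range from 4.88 to 1.02 TPM without a break.

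Lgr5-high cells had 3151, 5724 and 7051 genes at 1 TPM or more (lowest, median, highest), and Lgr5-low cells had 1316, 5932 and 6795. The Lgr5-low cell with 1316 genes stood apart, with 85.1% of its TPM on Gm10925, a gene that took a median of 11.5% of TPM in Lgr5-high cells and 6.50% in Lgr5-low cells. Differences are given without it as well where it turned the sign or moved a list's median by more than 1.5 times. Cells of i7 indexes N704 to N707 made up 9 of 15 Lgr5-high and 9 of 12 Lgr5-low cells. The 3 Lgr5-low cells of indexes N708 to N710 include the cell with few genes.

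Epithelial genes were present in both groups. Epcam was at 211, 369 and 721 TPM in Lgr5-high cells and at 14.3, 263 and 693 TPM in Lgr5-low cells (lowest, median, highest). Of 12 immune markers, Cd3e, Cd3g, Ms4a1, Cd8a and Nkg7 were listed at 0 in every cell of both groups, and Ptprc (CD45) did not pass 0.34 TPM. The summed immune markers reached 14.5 TPM in Lgr5-high cells (median 0.57) and 246 TPM in Lgr5-low cells (median 3.08), where the highest single value was 243 TPM of the macrophage gene Cd68. The summed endothelial markers reached 4.64 TPM in Lgr5-high cells and 13.3 TPM in Lgr5-low cells, with Kdr at 0 in all of them. The summed fibroblast and muscle markers reached 112 TPM in Lgr5-high cells and 148 TPM in Lgr5-low cells, where Acta2 alone reached 110 TPM in Lgr5-high cells and 148 TPM in Lgr5-low cells, with Col1a2, Col3a1, Dcn, Lum and Des at 0 in all of them. The part of these levels in the differences below was not tested.

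Across all genes, the Lgr5-high and Lgr5-low cells overlapped almost everywhere. Each gene was described by the difference in mean log2(TPM + 1), Lgr5-high minus Lgr5-low, a scale that understates changes of low genes, and by the share of the 180 pairs of 1 Lgr5-high and 1 Lgr5-low cell in which the Lgr5-high cell had the larger value. A gene was counted as higher at a difference of 1 or more with a share of 75% or more, and as lower at -1 or less with a share of 25% or less. Of 9166 genes seen at 1 TPM or more in 20% of the 50 cells, 79 were higher in Lgr5-high cells (0.862%), 1 of them Lgr5, and 56 were lower (0.611%). By the difference alone, 717 genes (7.82%) stood at 1 or more and 645 (7.04%) at -1 or less. The median difference over all of these genes was 0.07, or -0.10 without the cell with few genes. With the filter applied anew, it was -0.13 within indexes N704 to N707 and 0.60 within N708 to N710. Signs within these index groups, given below, stand beside these medians. No gene other than Lgr5 had ranges that did not overlap between the groups. Without the cell with few genes, 56 genes were higher and 148 lower, and 54 of the higher and 53 of the lower genes were those found with it. The numbers were also sensitive to where the Lgr5-low group ended: 337 genes were higher and 110 lower against the 6 cells below 0.5 TPM, and 22 were higher and 15 lower against the 24 cells below 2 TPM.

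**Figure D2:**
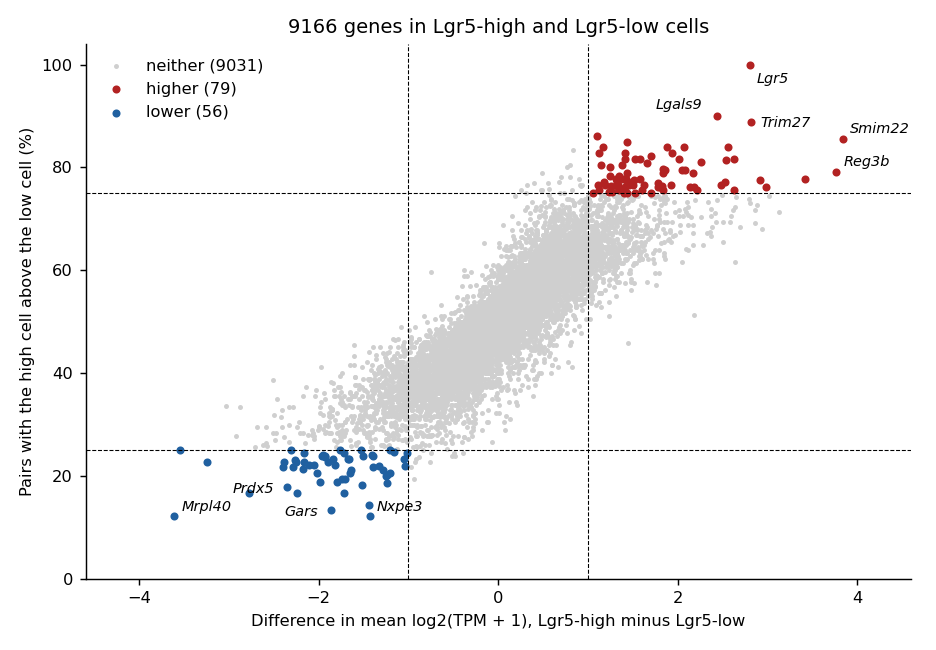
Each point is 1 of 9166 genes, placed by its difference in mean log2(TPM + 1), Lgr5-high minus Lgr5-low (horizontal axis), and by the percentage of the 180 cell pairs in which the Lgr5-high cell had the larger value (vertical axis). Dashed lines mark the limits for a gene to be counted as higher (79 genes, top right) or lower (56 genes, bottom left), and Lgr5, which chose the groups, is the only gene at 100%.

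Genes known from crypt base stem cells leaned to the Lgr5-high cells. Of 18 such genes, 15 passed the filter, and of the 14 other than Lgr5, 3 were higher in Lgr5-high cells and 0 lower. The 3 were Slc12a2, Smoc2 and Prom1. These 3 of 14 stand beside 0.862% of all genes. The median difference of the 14 genes was 0.94, and 11 were positive, beside a median of 0.07 and 54.5% positive over all genes. Without the cell with few genes, the median was 0.81 and 12 were positive, beside -0.10 and 42.6% over all genes. The list was chosen with results of these data known, so its count is not independent evidence.

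Slc12a2 encodes the sodium, potassium and chloride cotransporter NKCC1 of the basolateral membrane. It was at 0.06, 10.9 and 28 TPM in Lgr5-high cells and at 0, 1.91 and 9.53 TPM in Lgr5-low cells (lowest, median, highest). So 9 of 15 Lgr5-high cells lay above every Lgr5-low cell, while 3 Lgr5-high cells were under 1 TPM. Its mean log2(TPM + 1) was 3.10 ± 1.55 (SD, n = 15 cells) in Lgr5-high cells and 1.52 ± 1.27 (SD, n = 12 cells) in Lgr5-low cells, a difference of 1.58 with a pair share of 81.7%.

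Smoc2 (GRCm38 chr17:14279506-14404790) encodes a secreted matrix protein found in crypt stem cells. It was at 0.18, 20.7 and 39.95 TPM in Lgr5-high cells and at 0.02, 5.21 and 51.55 TPM in Lgr5-low cells. The groups overlapped over nearly their whole range, and the highest value of all was in the Lgr5-low cell with few genes. The difference was 1.41 with a pair share of 76.1%, and 1.68 without that cell. Smoc2 overlaps the gene 4930474M22Rik on the other strand.

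Prom1 (GRCm38 chr5:43993620-44102032, minus strand) encodes prominin-1 (CD133), a membrane glycoprotein of epithelial protrusions. It was seen in all 15 Lgr5-high cells, at 3.49, 10.5 and 47.5 TPM, and in 10 of 12 Lgr5-low cells, at 0.31, 4.78 and 16.6 TPM. The difference was 1.34 with a pair share of 76.7%. The 23 cells between had a median of 11.8 TPM, no lower than the Lgr5-high cells. In each of these 3 genes the difference was also positive within each index group: for Slc12a2 1.05 in indexes N704 to N707 and 2.36 in N708 to N710, for Smoc2 1.24 and 1.15, and for Prom1 1.41 and 1.13. Medians over all genes in the same index groups were -0.13 and 0.60.

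The other crypt genes did not meet both limits. Gkn3, a secreted gastrokine, had the largest difference of the 14 genes, 2.43, but a pair share of 69.4%. It was seen in 8 of 15 Lgr5-high cells, up to 392 TPM, and in 3 of 12 Lgr5-low cells, up to 146 TPM. Ascl2, the transcription factor of intestinal stem cell identity, was likewise seen in 8 of 15 Lgr5-high cells (up to 329 TPM) and 3 of 12 Lgr5-low cells (up to 302 TPM), with a difference of 1.59 and a pair share of 66.7%. Lrig1, an inhibitor of ErbB receptors, was seen in 10 of 15 Lgr5-high and 3 of 12 Lgr5-low cells, with a difference of 1.07 and a pair share of 68.3%. Msi1, an RNA-binding protein, had a pair share of 76.9% but a difference of 0.55. The BMP co-receptor Rgmb had 0.96 and 71.9%, and the transcription factor Sox9 0.90 and 58.3%. Cd44, Rnf32 and Sp5 had negative differences of -0.68, -0.22 and -0.23. The sign held for Cd44 alone of these, at -0.80 without the cell with few genes and negative in both index groups. Rnf32 was at 0.10 without that cell, and Sp5 was at -0.54 without it but at 0.04 in indexes N704 to N707 and 0.51 in N708 to N710. Olfm4 was not seen in either group.

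The Lgr5-high cells differed among themselves in which of these genes they carried. They had 7, 9 and 13 of the 14 crypt genes at 1 TPM or more (lowest, median, highest), and Lgr5-low cells had 3, 7 and 11. Their mean level over the 14 genes, in log2(TPM + 1), was 2.12, 3.02 and 4.32, against 0.91, 2.22 and 3.19 in Lgr5-low cells, and 4 of 15 Lgr5-high cells lay above every Lgr5-low cell. The Lgr5-high cell with the most Lgr5, at 16.15 TPM, had the lowest of these mean levels in its group, and it was also the Lgr5-high cell with the fewest genes, 3151. Gkn3 and Ascl2 were seen together in 5 Lgr5-high cells, Gkn3 alone in 3, Ascl2 alone in 3 and neither in 4. In Lgr5-low cells the same counts were 2, 1, 1 and 8.

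**Figure D3:**
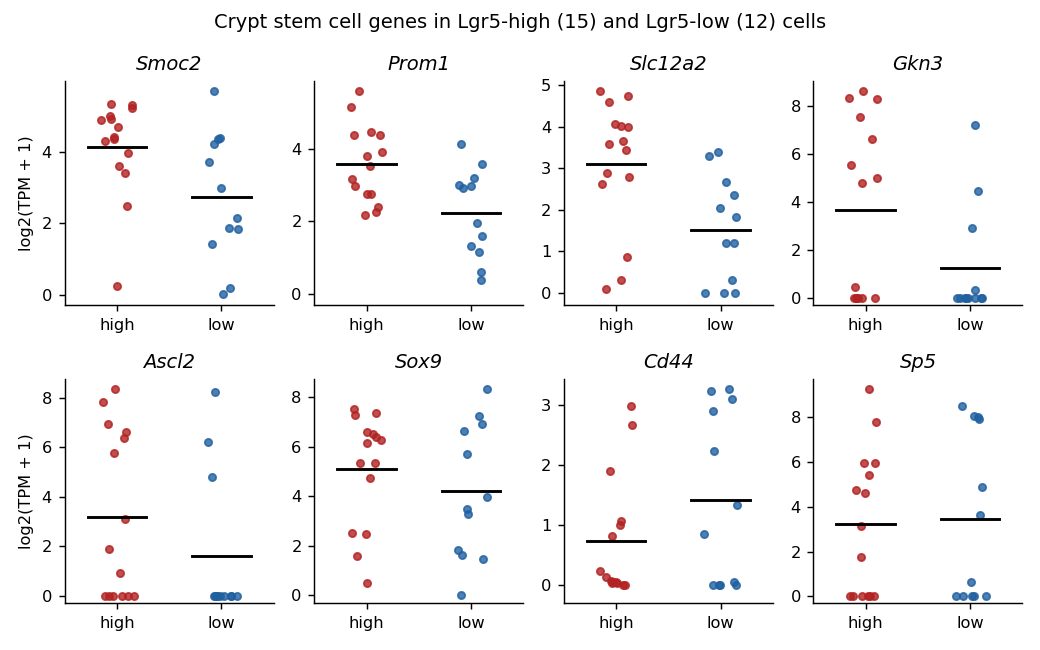
log2(TPM + 1) of 8 crypt stem cell genes in each Lgr5-high cell (left, n = 15) and Lgr5-low cell (right, n = 12), with bars at the means. Slc12a2, Smoc2 and Prom1 were counted as higher, Gkn3 and Ascl2 were seen in 8 of 15 Lgr5-high and 3 of 12 Lgr5-low cells each, and Cd44 and Sp5 had means that were lower in Lgr5-high cells.

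Of 8 genes of the R-spondin receptor pathway that passed the filter, Lgr5 alone met the limits. Its paralog Lgr4 had a median of 8.43 TPM in Lgr5-high cells and 3.92 TPM in Lgr5-low cells, with a difference of 0.74 and a pair share of 65.6%. The third family member, Lgr6, was under 1 TPM in every cell of both groups, and the ligands Rspo1, Rspo2, Rspo3 and Rspo4 were listed at 0 in them. The ubiquitin ligase Rnf43 had a median of 4.61 TPM in Lgr5-high cells and 11.3 TPM in Lgr5-low cells, with a difference of -0.69, which was -1.18 in indexes N704 to N707 and 0.52 in N708 to N710. Znrf3, the related ligase, had a difference of 0.07, or -0.01 without the cell with few genes.

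Of 17 Wnt target genes measured, 0 were higher and 0 lower, 13 had negative differences, and the median difference was -0.27, beside 45.5% negative over all genes. The counts of 0 stand beside 0.862% higher and 0.611% lower over all genes. Without the cell with few genes, 15 were negative and the median was -0.54, beside 57.4% negative over all genes. With the filter applied anew within each index group, the median was -0.67 in indexes N704 to N707 and 0.47 in N708 to N710. Its direction thus differed between index groups, as did that of all genes, with medians of -0.13 and 0.60. Axin2, the feedback inhibitor often used as a readout of the pathway, was at 0, 5.47 and 28.1 TPM in Lgr5-high cells and at 0, 4.31 and 64.9 TPM in Lgr5-low cells, a difference of 0.08, or -0.16 without the cell with few genes. The Wnt inhibitors Nkd1, Notum and Apcdd1 had differences of -0.11, -0.67 and -0.95, or -0.47, -1.19 and -1.13 without that cell. In indexes N708 to N710 these 3 genes were at 0.08, 1.38 and 0.43, beside a median of 0.60 over all genes. Nkd1 and Apcdd1 thus lay below that median. The 7 genes linked to Prox1, a transcription factor of Wnt-active intestinal tumors, had a median of -1.12. None met both limits: Tbx3, Ptn, Wnt10a and Wnt6 had differences below -1 with pair shares of 35%, 35.6%, 46.7% and 35.6%. Over the members that passed the filter within each index group, the median was -0.63 in indexes N704 to N707 and 0.44 in N708 to N710. These stand beside the same -0.13 and 0.60 over all genes. Prox1 itself had a median of 17.8 TPM in Lgr5-high cells and 10.4 TPM in Lgr5-low cells, with a difference of 0.72 and a pair share of 57.2%. Apc had a difference of -0.21, at -0.23 in indexes N704 to N707 and 0.09 in N708 to N710.

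Cells with 15 or more G2/M genes were 2 of 15 Lgr5-high cells (13.3%, 95% Clopper-Pearson interval 1.66 to 40.5%) and 3 of 12 Lgr5-low cells (25%, 5.49 to 57.2%), intervals that cover counting error only. Of 23 S-phase genes and 19 G2/M genes, 0 were higher or lower, with median differences of 0.22 and -0.47, or 0.13 and -0.63 without the cell with few genes. Over all genes, 0.862% were higher and 0.611% lower, with a median of 0.07, or -0.10 without that cell. Counts of 0 in lists of this size therefore say little. Mki67, the common proliferation marker, was seen in 4 of 15 Lgr5-high cells and 4 of 12 Lgr5-low cells. Of 15 genes of slow-cycling or reserve cells, 0 met both limits, with a median of -0.16, or -0.39 without the cell with few genes. Among them, Hopx, a marker of reserve stem cells, was seen in 9 of 15 Lgr5-high and 2 of 12 Lgr5-low cells (difference 1.64, pair share 72.2%), and the cell cycle inhibitor Cdkn1b had 1.52 and 68.9%. The inhibitor Cdkn1a lay the other way, with medians of 39.3 TPM in Lgr5-high cells and 253 TPM in Lgr5-low cells and a difference of -1.37. This direction did not hold within the index groups, at -1.96 in N704 to N707 and 0.42 in N708 to N710. Medians over all genes there were -0.13 and 0.60.

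Reg3b, a secreted antibacterial lectin of the gut, was the member of the antimicrobial list that counted as higher (1 of 7, median difference of the list 1.08). Over all genes, 0.862% were higher and the median was 0.07. It was seen in 11 of 15 Lgr5-high cells, with a median of 102 TPM and a highest value of 1105 TPM, and in 3 of 12 Lgr5-low cells, with a median of 0 and a highest value of 421 TPM. The difference was 3.77 with a pair share of 79.2%. Its relative Reg3g had a difference of 1.75 with a pair share of 59.4%, and Lcn2, an iron-scavenging protein, had medians of 194 TPM in Lgr5-high cells and 516 TPM in Lgr5-low cells and a difference of -1.43. For Lcn2 the sign turned between index groups, at -2.71 in N704 to N707 and 1.78 in N708 to N710. The median over all genes turned as well, at -0.13 and 0.60. Every Lgr5-high cell with Gkn3 also had Reg3b at 1 TPM or more (8 of 8), against 1 of 3 Lgr5-low cells with Gkn3. In the Lgr5-high cells with the most Gkn3, at 392 and 322 TPM, Reg3b was only just over that limit, at 1.01 and 1.05 TPM. Of the 23 cells between, 7 had both genes and 4 had Gkn3 without Reg3b.

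Of 10 epithelial genes, 1 was higher, beside 0.862% of all genes: Cd24a, whose protein was used in the sort. It had medians of 931 TPM in Lgr5-high cells and 623 TPM in Lgr5-low cells and a difference of 1.33, or 0.72 without the cell with few genes. The median of the epithelial list was 1.0 with that cell and 0.35 without it, and that of the 12 oxidative phosphorylation genes 0.46 with it and -0.12 without it. The median over all genes was 0.07 with that cell and -0.10 without it. No gene of the goblet, colonocyte, enteroendocrine, tuft, Paneth, regenerative, Notch, BMP, EGF, interferon, hypoxia, ribosome biogenesis, matrix, dissociation or housekeeping lists was counted as higher or lower. Only 1 goblet, 2 enteroendocrine and 2 tuft genes passed the filter, and 6 to 13 of each other list. With 0.862% of all genes higher and 0.611% lower, counts of 0 in lists this short do not show that the groups were alike.

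**Figure D4:**
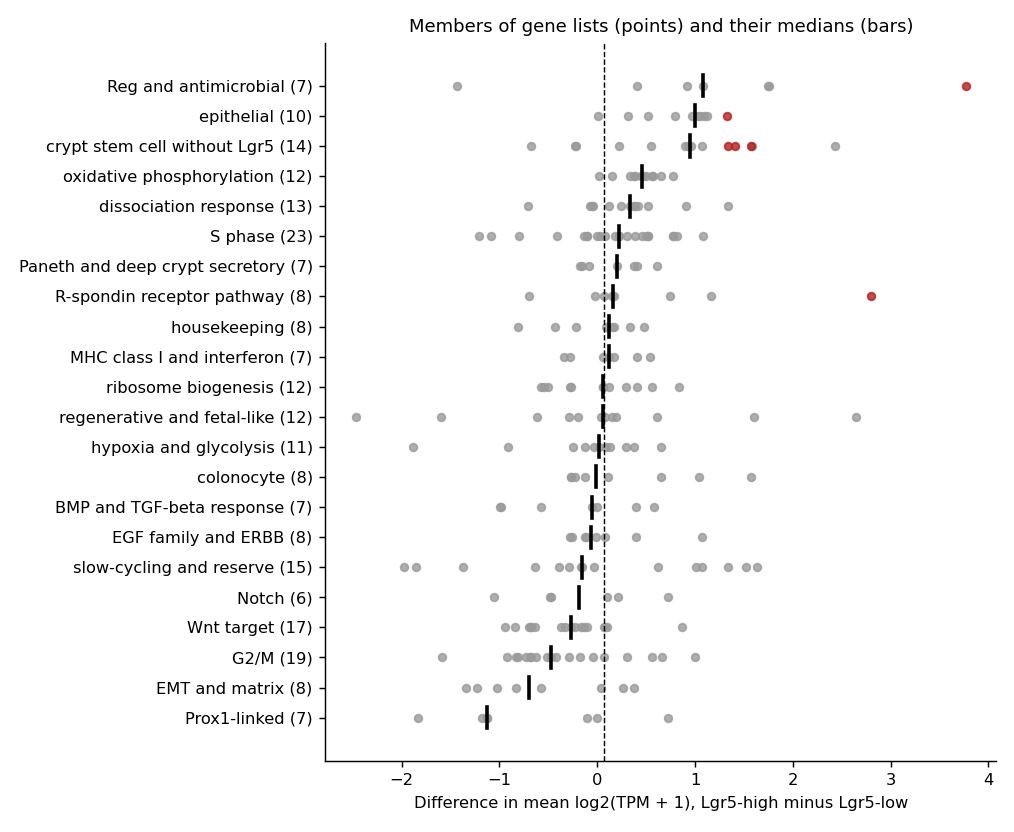
Difference in mean log2(TPM + 1), Lgr5-high minus Lgr5-low (horizontal axis), for each member that passed the filter (points) of the gene lists with 5 or more such members, whose number stands in brackets. Bars are list medians, the dashed line is the median of all 9166 genes (0.07), and red points are genes counted as higher; Lgr5 is the red point of the R-spondin receptor pathway.

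The gene that went most closely with Lgr5 was Lgals9, which encodes galectin-9, a lectin that binds beta-galactosides on glycoproteins. It was at 49.4, 142 and 199 TPM in Lgr5-high cells and at 0, 26.9 and 100 TPM in Lgr5-low cells (lowest, median, highest). All 15 Lgr5-high cells lay above the Lgr5-low median, and 10 lay above every Lgr5-low cell. Its mean log2(TPM + 1) was 6.84 ± 0.66 (SD, n = 15 cells) in Lgr5-high cells and 4.41 ± 2.2 (SD, n = 12 cells) in Lgr5-low cells, a difference of 2.44 with a pair share of 90.0%. The difference was 2.04 without the cell with few genes, 1.97 within indexes N704 to N707 and 3.89 within N708 to N710. Over all 50 cells, Spearman's rho of Lgals9 with Lgr5 was 0.63, the highest of 9165 genes, which in part restates the contrast, since it includes the same cells.

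The 23 cells between the thresholds took no part in the contrast, and in them Lgals9 had a median of 70.8 TPM, between the other groups, and rho of 0.60 with Lgr5 (rank 26 of 9165 genes). Over the higher genes the share with a positive rho was near that of all genes. The coefficient was positive for 53 of the 78 higher genes (67.9%), for 37 of the 56 lower genes (66.1%) and for 64.9% of all 9165. At 0.4 or more it stood for 5 higher genes and for 5.36% of all genes. Beside Lgals9 these were Wipi2, an autophagy protein (rho 0.68), the zinc finger genes Zbtb24 (0.47) and Zfp981 (0.41), and Mrps31 (0.42). None of the 56 lower genes had rho of -0.4 or less, where 0.884% of all genes lay. Lgr4 had rho of 0.55 (rank 51). All cells share the mouse, the sort and the library method, and rho is given as a description.

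**Figure D5:**
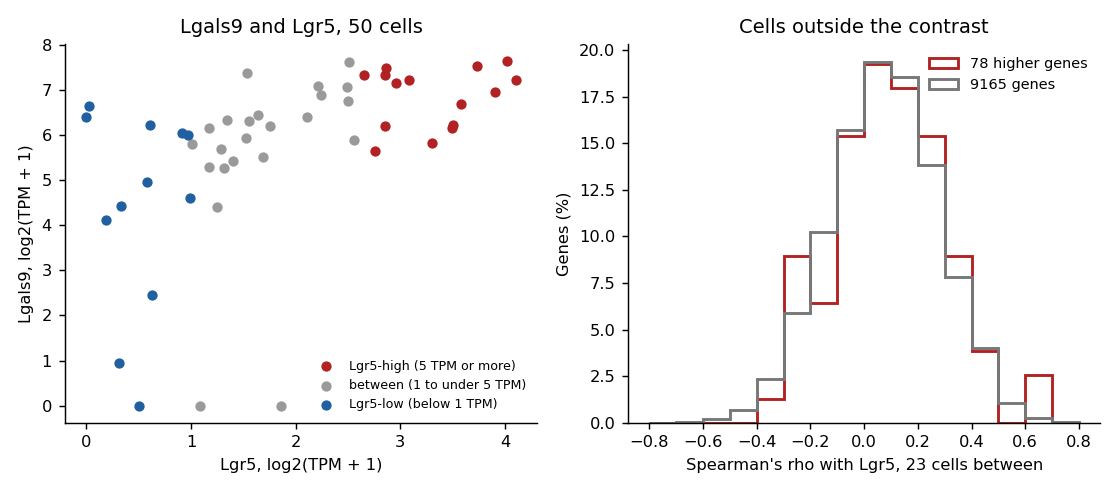
Left, log2(TPM + 1) of Lgals9 against that of Lgr5 in each of the 50 cells, colored by Lgr5 group. Right, the distribution of Spearman's rho with Lgr5 over the 23 cells between the thresholds, for the 78 genes counted as higher and for all 9165 genes (percentage of genes per bin); the outlines lie on each other over most of the range.

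Stretches around transcript starts of 2 of the genes counted as higher are shown because Lgals9 went with Lgr5 most closely and Prom1 is a crypt stem cell gene. Both are 5′ to 3′ on the gene's own strand, 250 bases before to 50 bases after a RefSeq transcript start, from RefSeq for GRCm38.p6. The Lgals9 window is chr11:78984875-78985174 and the Prom1 window, the second of 2 starts, is chr5:44094719-44095018, both on the minus strand. This Prom1 window lies inside the annotated gene, and of the 2 it is the one with the motif marked below. Capitals mark CTTTGA, the core of sites bound by TCF/LEF factors, the DNA-binding partners of beta-catenin in Wnt signaling.
Lgals9: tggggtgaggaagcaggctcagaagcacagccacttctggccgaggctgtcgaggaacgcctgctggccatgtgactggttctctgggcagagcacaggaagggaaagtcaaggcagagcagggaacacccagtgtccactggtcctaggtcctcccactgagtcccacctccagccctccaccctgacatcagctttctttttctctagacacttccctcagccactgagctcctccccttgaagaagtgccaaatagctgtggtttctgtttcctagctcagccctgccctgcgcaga
Prom1: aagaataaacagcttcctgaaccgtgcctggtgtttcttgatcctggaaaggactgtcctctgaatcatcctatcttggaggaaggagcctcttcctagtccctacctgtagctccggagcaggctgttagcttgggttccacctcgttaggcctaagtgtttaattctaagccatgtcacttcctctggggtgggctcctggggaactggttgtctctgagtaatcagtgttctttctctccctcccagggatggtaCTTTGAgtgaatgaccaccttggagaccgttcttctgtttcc
The motif stood once in the printed Prom1 window, at position 8 after the transcript start. It was in neither strand of the Lgals9 window or of the window at the other Prom1 start, chr5:44101687-44101986, which is not printed. Searched on both strands (CTTTGA or TCAAAG), it was in 16% of all 32851 windows of this length, in 11.8% of those of the genes that passed the filter, in 5 of 71 windows of higher genes (7.04%) and in 8 of 52 windows of lower genes (15.4%). The motif CAGCTG, one form of E-box and its own reverse complement, was in 16.3%, 14.3%, 12.7% and 11.5% of the same sets, and in neither printed window. These are matches of letters, not sites of binding.

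Among the genes named as higher by the largest pair shares, Lgals9 and Slc12a2 are given above and 13 others ranged in difference from 1.11 (Fhdc1, a formin) to 3.85 (Smim22, a small membrane protein). Smim22 was seen in all 15 Lgr5-high cells, at 9.18, 84.0 and 731 TPM, and in 8 of 12 Lgr5-low cells, at 0, 4.54 and 303 TPM. Its values overlapped, and 3 Lgr5-high cells lay above every Lgr5-low cell. Trim27, a ubiquitin ligase of the tripartite motif family, was at 0.13, 51.6 and 90.3 TPM in Lgr5-high cells and at 0, 2.23 and 28.9 TPM in Lgr5-low cells, a difference of 2.82 with a pair share of 88.9%. It set 10 of 15 Lgr5-high cells above every Lgr5-low cell, yet in the cells between its rho with Lgr5 was -0.16. There rho was also negative for Smim22 (-0.20), Srek1 (-0.21) and Fhdc1 (-0.25). It was positive for 8 of the 15 higher genes named by pair share (53.3%), beside 64.9% of all genes.

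Other higher genes fell into several roles. Slc25a28, the mitochondrial iron importer mitoferrin-2, had medians of 20.7 TPM in Lgr5-high and 0.14 TPM in Lgr5-low cells. Its difference was 3.69 in indexes N704 to N707 and 0.25 in N708 to N710. Ivns1abp, a kelch protein, had 45.4 TPM in Lgr5-high and 4.64 TPM in Lgr5-low cells. Cand1, the exchange factor of cullin ubiquitin ligases, had 12.6 TPM in Lgr5-high and 1.86 TPM in Lgr5-low cells. The splicing regulator Srek1 had 12.8 TPM in Lgr5-high and 1.72 TPM in Lgr5-low cells. Dnm2, the vesicle-cutting GTPase dynamin-2, had 5.5 TPM in Lgr5-high and 1.3 TPM in Lgr5-low cells. Rnf215, Mrps31, Zfp981, Serinc5 (a serine incorporator) and Cdc42se2 (a Cdc42 effector) had differences of 2.56, 2.07, 1.17, 1.12 and 1.53. Each of these genes overlapped between the groups.

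Lower genes were led by Mrpl40, a protein of the large subunit of the mitochondrial ribosome (GRCm38 chr16:18872018-18876862, minus strand). It was at 0, 2.64 and 279 TPM in Lgr5-high cells and at 23, 89.9 and 258 TPM in Lgr5-low cells (lowest, median, highest). So 11 of 15 Lgr5-high cells lay below every Lgr5-low cell, while 1 Lgr5-high cell held the highest value of both groups. The mean log2(TPM + 1) was 2.78 ± 2.55 (SD, n = 15 cells) in Lgr5-high cells and 6.39 ± 0.97 (SD, n = 12 cells) in Lgr5-low cells, a difference of -3.61 with a pair share of 12.2%. In the cells between, Mrpl40 had a median of 35 TPM and rho of 0.03 with Lgr5. It overlaps the predicted gene Gm28539 on the other strand.

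Gars, which charges tRNA with glycine, was seen in all 12 Lgr5-low cells and in 12 of 15 Lgr5-high cells, with medians of 4.91 TPM in Lgr5-high cells and 24.4 TPM in Lgr5-low cells and a difference of -1.86. Ppa1, the cytosolic pyrophosphatase, had medians of 13.7 TPM in Lgr5-high cells and 31.8 TPM in Lgr5-low cells and a difference of -1.44. Prdx5, a peroxiredoxin that removes peroxides, had medians of 41.5 TPM in Lgr5-high cells and 184 TPM in Lgr5-low cells and a difference of -2.36. For Ppa1 and Prdx5 the 23 cells between, with medians of 33.9 and 173 TPM, were close to the Lgr5-low cells. Prdx5 overlaps Trmt112 on the other strand.

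Further lower genes had medians in Lgr5-low cells from 0.77 TPM (Jak3) to 14.6 TPM (C2cd2l). Jak3, the kinase of lymphocyte cytokine receptors, was seen in 0 of 15 Lgr5-high cells and 6 of 12 Lgr5-low cells, with highest values of 0.55 TPM in Lgr5-high cells and 25.3 TPM in Lgr5-low cells. Nxpe3 was seen in 2 of 15 Lgr5-high and 7 of 12 Lgr5-low cells, and Dtnbp1, dysbindin of lysosome-related organelles, in 2 of 15 Lgr5-high and 8 of 12 Lgr5-low cells. Asah1, acid ceramidase, was seen in 3 of 15 Lgr5-high and 8 of 12 Lgr5-low cells. C2cd2l, a lipid transfer protein at membrane contacts, was seen in 4 of 15 Lgr5-high and 9 of 12 Lgr5-low cells. Other lower genes were the mitochondrial helicase Supv3l1 (difference -1.99), the deadenylase subunit Cnot3 (-1.74), the mRNA export factor Thoc2 (-1.25), the chromatin reader Zmynd8 (-1.52) and the arginine methyltransferase Carm1 (-1.21). The kinase Riok3 had a difference of -1.79 and, in the cells between, a rho of 0.45 with Lgr5, against the direction of the contrast.

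Of the 79 higher genes, 78 had a positive difference in both index groups and 78 were protein coding. Of the 56 lower genes, 49 had a negative difference in both index groups and 52 were protein coding. The index groups are parts of the same cells that gave the counts. In indexes N708 to N710 genes at large leaned positive, with a median of 0.60. No share over all genes stands beside these counts, so they show nothing particular to the called genes. Prom1, Trim27, Rnf215, Zfp981, Ivns1abp, Dnm2, Cdc42se2, Supv3l1, Cnot3, Carm1, Thoc2, Zmynd8, Nxpe3 and Jak3 also overlap other annotated genes, and reads of the partners cannot be told apart here where counting ignored strand. For Prom1, Rnf215, Cdc42se2, Cnot3, Nxpe3 and Jak3, a partner lies on the same strand, where strand alone would not separate them.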

How the data were processed

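Single-cell RNA-seq (Bead-seq, per the labels) of 56 libraries was deposited by the authors as 1 table of TPM for 24410 Ensembl gene IDs. Per the submitters' processing notes, the processing involved bcl2fastq 1.8.4, Bowtie2 2.2.9, RSEM 1.2.31 and mouse build GRCm38.p4, with settings and strand unstated in the sources used. Read depth cannot be had from TPM, and a gene at exactly 0 is called listed at 0. Columns were matched to samples by index pair. GENCODE M21 gave symbols for 24235 IDs.

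Averaging library pairs with Pearson's r above 0.9 (log2 scale, genes at 1 TPM in 20% of libraries) gave 50 cells. Groups, filter (1 TPM in 20% of cells), pseudocount (1 TPM) and limits for higher and lower genes are given above; ties counted as 0.5 of a pair. The members and lists were chosen with earlier results of these data known. The genes named were Lgr5, Lgr4, Lgr6, Prox1, Cdkn1c, Mki67, Top2a, Epcam, Cd24a and Apc, the 15 higher and 15 lower genes with the most extreme pair shares and the same sign in both index groups (predicted genes passed over), and frequent or called members of 28 lists; others were named after their values were seen, and not all frequent members are printed. The method was also run on simulated data, with each gene's values shuffled over cells and changes planted only in widely seen genes. Its outcome is not given here. It could not show how the limits work for genes seen in few cells or for genes that vary together. Python 3.11.15, numpy 2.4.6, pandas 2.3.3 and SciPy 1.17.1 were used.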

Additional observations from a re-analysis of the deposited data

How the results depend on the processing

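No result was tested, so a setting can only move a value. No paired analysis was possible because the labels give 1 group with no replicate numbers. The 79 higher and 56 lower genes became 238 and 163 with Lgr5-high from 8 TPM, 337 and 110 with Lgr5-low below 0.5 TPM, 22 and 15 with Lgr5-low below 2 TPM, 47 and 27 for the highest 16 and lowest 16 cells by Lgr5, and 23 and 15 with a pseudocount of 10 TPM. They became 717 and 645 by the difference alone, 140 and 356 in indexes N704 to N707, and 1552 and 288 in indexes N708 to N710, where the Lgr5-low group has 3 cells, 1 of them the cell with few genes. Without cells with 15 or more G2/M genes, an alternative chosen after seeing the data, they were 167 and 121. Lower genes were 25 with Lgr5-high from 3 TPM and 148 without the cell with few genes. With any 1 of the i5 indexes removed there were 100 to 144 higher and 63 to 147 lower genes. The 3 crypt genes other than Lgr5 became 0 with a pseudocount of 10 TPM, 6 by the difference alone, 1 in indexes N704 to N707, 6 in N708 to N710, and 1 to 4 when an i5 index was left out; their list's median was 1.72 with a pseudocount of 0.1 TPM. The cause of these shifts was not tested. Of the called genes, 1 higher and 7 lower did not keep their sign in both index groups. For 34 called genes recomputed under each setting (the 30 named by pair share, which had been required to keep their sign in both index groups, with Prom1, Smoc2, Cd24a and Reg3b), 0 changed sign and 893 of 908 differences stayed within 1 SD of the cells, as did 669 of 728 list medians. This limit is wide and shows little about stability. For Reg3b, the SD between Lgr5-high cells was 3.95, beside a difference of 3.77. Of 27 list medians, 22 changed sign under some setting, among them S phase (-0.79 to 1.26), G2/M (-1.09 to 0.51), Wnt targets (-0.75 to 0.47), Prox1-linked genes (-1.44 to 0.44), slow-cycling genes (-0.39 to 0.74) and oxidative phosphorylation (-0.20 to 2.36). The difference of Lgals9 ranged from 1.73 to 3.89, of Slc12a2 from 0.65 to 2.36, of Smoc2 from 0.68 to 2.09, of Prom1 from 0.59 to 1.70 and of Mrpl40 from -4.64 to -2.14.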

Other observations

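Some gene families were looked at after their values were seen, and they are given as values only. Their counts stand beside 0.862% higher and 0.611% lower over all 9166 genes. Their medians stand beside 0.07 over all genes, or -0.10 without the cell with few genes. Of 5 galectins that passed the filter, Lgals9 and Lgals4 were higher in Lgr5-high cells. Lgals4, an intestinal galectin, was at 0.25, 457 and 860 TPM in Lgr5-high cells and at 0, 15.2 and 545 TPM in Lgr5-low cells (lowest, median, highest), with a difference of 2.92 and a pair share of 77.5%. In the 23 cells between, its rho with Lgr5 was 0.06, against 0.60 for Lgals9. Lgals3, another galectin, had a difference of -0.68. Lgals4 was seen in every cell with Reg3b: in 11 of 11 such Lgr5-high cells, 3 of 3 Lgr5-low cells and 13 of 13 of the cells between. It was also seen without Reg3b in 3 Lgr5-high cells, 5 Lgr5-low cells and 6 of the cells between. Only 1, 4 and 4 cells of these groups had neither gene, so Lgals4 was common in any case.

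Of 29 ZBTB zinc finger genes, a family of transcription factors, 3 were higher (Zbtb24, Zbtb7a and Zbtb10) and 0 lower, with a median difference of 0.63. Of 33 tRNA synthetases, 0 were higher and 3 lower (Gars, Farsa and Tars2), with a median of 0.11, or -0.20 without the cell with few genes. Farsa had medians of 0.19 TPM in Lgr5-high cells and 33.1 TPM in Lgr5-low cells, and Tars2 of 0 TPM in Lgr5-high cells and 15.9 TPM in Lgr5-low cells. Of 78 mitochondrial ribosomal proteins, Mrps31 was higher and Mrpl40 lower, with a median of -0.10, or -0.39 without the cell with few genes.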
